A study of Mus musculus with 12 samples.

Results

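The genes described here encode the kinesin and cytoplasmic dynein motor proteins of mouse retina. They were the genes named Kif followed by a digit, Kifap3, and the genes whose names begin with Dync, without pseudogenes and opposite-strand genes. Of 49 such names among the 56748 entries of the scaled-count table, 42 had at least 10 scaled counts in at least 3 of the 12 libraries and were kept. They comprised 33 kinesin genes, Kifap3 counted among them, and 9 dynein chain genes. The 7 names below that level were Kif2b, Kif2c, Kif6, Kif12, Kif18b, Kif19b and Kif28. RNA came from retinas of 2-month-old mice in 4 groups of 3 libraries. All mice carried RiboTag, a ribosomal protein that gains an HA tag wherever Cre acts, and i75-Rod-Cre, a Cre driven by a rhodopsin promoter in rods. The littermate controls (RiboTag;i75-Rod-Cre) had no other change named in the labels, and the Abca4Ko mice (RiboTag;Abca4-/-;i75-Rod-Cre) lacked Abca4, the retinoid flippase of photoreceptor discs. From each genotype, RNA was taken from the whole lysate (retina, 5 ng) and from the ribosomes pulled down by the tag (rod TRAP, 10 ng), so that rod TRAP reads ribosome-bound messages of rods and the retina libraries read all cells, rods included.

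Kinesins and cytoplasmic dynein are motors that walk along microtubules in opposite directions. Kinesins mostly move toward plus ends, and cytoplasmic dynein moves toward minus ends. In a rod, proteins made in the inner segment reach the outer segment through the connecting cilium, a modified primary cilium in which heterotrimeric kinesin-2 drives intraflagellar transport outward and dynein-2 drives the return. Kinesin-1 and kinesin-3 motors and dynein-1 carry mitochondria, vesicles and synaptic cargo through the cell body and axon, and several other kinesins are best known from the mitotic spindle.

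The authors had scaled each library to a common total within its fraction (17096515 to 17097707 for rod TRAP, 17860761 to 17862326 for retina), so the sequencing depth of a library is unknown. Abca4 itself was at 53193 to 61017 scaled counts in control rod TRAP and at 195 and 365 in the rod TRAP libraries labelled Abca4Ko replicates 1 and 2. The libraries labelled Abca4Ko replicate 3 held 13156 in rod TRAP and 8124 in retina, 23.5% and 21.3% of the control means, and stood apart in both fractions. Summed TPM, a share of the library per transcript length, of 14 rod markers was 218223 to 244319 in rod TRAP and 94981 to 126869 in retina. The sum over 11 ganglion cell markers was 15.4 to 23.7 in rod TRAP and 644.3 to 1055 in retina, and over 9 Müller glia markers 92.5 to 143.0 and 2824 to 5193. The fractions were closer for 8 cone markers (390.5 to 593.3 and 1076 to 1791) and 8 bipolar markers (370.9 to 440.1 and 756.7 to 1517). Otx2, higher in rod TRAP (299.9 to 357.1) than in retina (137.2 to 228.8), made up most of the bipolar sum in rod TRAP. Of all scaled counts, the 42 motor genes together made up 0.376 to 0.490% in the rod libraries and 0.290 to 0.466% in retina. The retina library of Abca4Ko replicate 1 had the lowest sums of the retina libraries for ganglion, amacrine, bipolar and Müller glia markers.

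The first question was which motor messages differed in level between rod TRAP and the whole retina. In control mice, 23 of the 41 motor genes tested were higher in rod TRAP than in retina, 10 were lower and 8 did not pass the test (limma, adjusted p under 0.05 over all 16286 genes tested). Of all genes tested, 36.0% were higher and 39.3% were lower. The median log2 fold change was 0.97 over the motor genes and -0.05 over all genes. A call in either direction was therefore common in this comparison. So was a lack of overlap: after rescaling, the groups did not overlap for 33 of the 41 motor genes tested. Its share over all genes was not counted. Without the trimmed-mean rescaling, on the totals of the authors alone, the median of all genes moved to -0.62, and 20 motor genes were higher and 16 lower, beside 3411 genes higher and 9558 lower of all tested. In bulk RNA, fewer cells of a type and less RNA per cell cannot be told apart. Rod TRAP holds ribosome-bound RNA and retina holds lysate RNA, at different input amounts. Cell type, ribosome binding and preparation therefore cannot be told apart in this comparison. Dynein chains were mostly higher (7 of 9 tested, with 1 lower), and the kinesins were divided (16 of 32 higher, 9 lower).

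**Figure D1:**
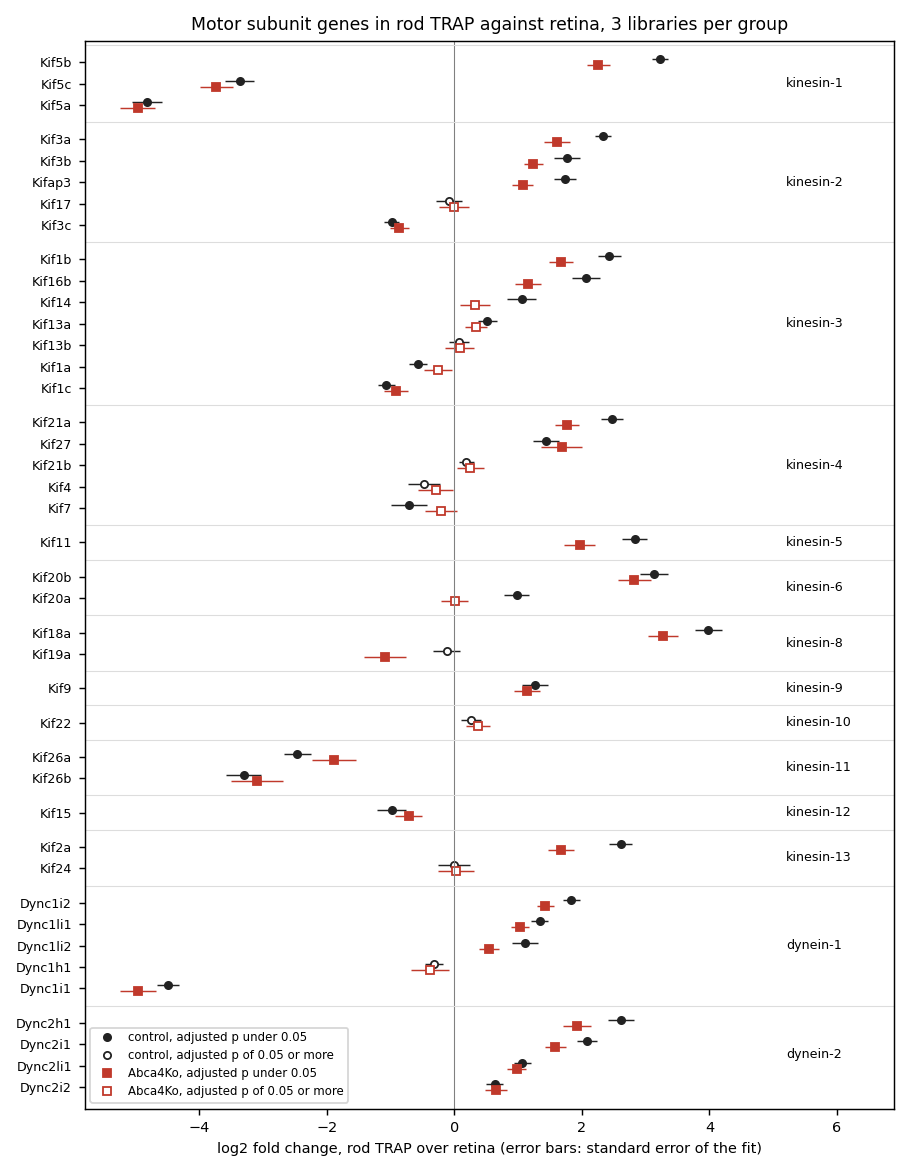
Log2 fold change of rod TRAP over retina for the 41 motor genes tested, by family, in control (black circles) and Abca4Ko (red squares) mice, with the standard error of the fit as bars. Filled symbols passed an adjusted p of 0.05 and open symbols did not. Kif18a and Kif5b lie farthest right, at 3.98 and 3.22 in controls, and Kif5a and Dync1i1 farthest left, at -4.82 and -4.49.

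Kinesin-1, the general plus-end carrier of mitochondria and vesicles, is built on 1 of 3 heavy chains, and the chain with the highest level differed between rod TRAP and whole retina. Kif5b, the heavy chain found in most tissues, had 1838, 2016 and 1956 scaled counts in the control rod TRAP libraries and 357, 338 and 282 in the control retina libraries. Every rod TRAP library was above every retina library, and the log2 fold change was 3.22 ± 0.128 (SE; limma adjusted p = 6.6e-10), a 9.34-fold difference. Kif5a, a heavy chain enriched in neurons, went the other way, with 45, 107 and 82 scaled counts in rod TRAP and 3249, 4624 and 3285 in retina. Its log2 fold change was -4.82 ± 0.239 (adjusted p = 3.0e-09), the largest fall among the motor genes. Kif5c, also neuronal, had 74, 81 and 100 against 1530, 2230 and 1005, a log2 fold change of -3.37 ± 0.225 (adjusted p = 3.6e-08). The groups did not overlap for any of the 3 chains, which was common among the motor genes in this comparison.

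On the TPM scale, which is per transcript length, the order of the chains was reversed between the fractions. Over both genotypes, Kif5b ran from 29.7 to 43.7 TPM in rod TRAP, above Kif5c at 1.1 to 2.3 and Kif5a at 0.7 to 1.9, and the last pair overlapped. In retina Kif5a ran from 23.3 to 67.8 and Kif5c from 12.6 to 45.2, ranges that overlapped, and both were above Kif5b at 4.2 to 10.8. Kif5b was 93.3% ± 1.06 (SD, n = 6) of the summed kinesin-1 TPM in rod TRAP and 8.85% ± 4.36 (SD, n = 6) in retina. The difference of 84.5 percentage points had an exact permutation p of 0.00216 (two-sided, 6 against 6, the smallest that this design allows), and 0.0026 after adjustment over the 6 shares tested.

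**Figure D2:**
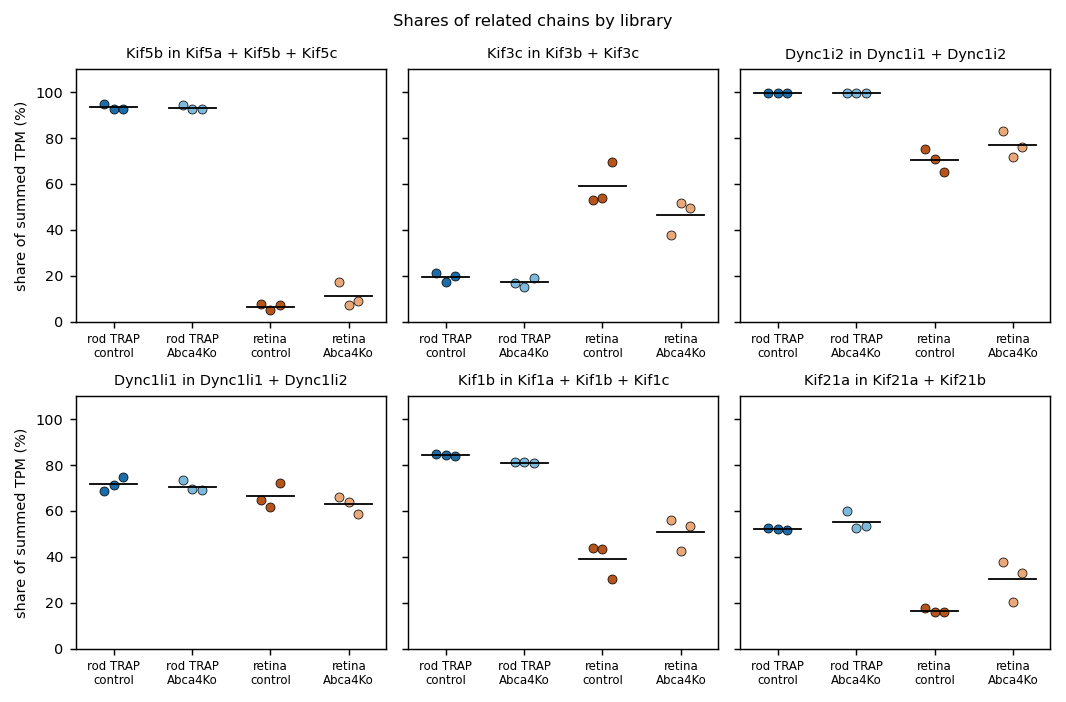
Share of 1 chain in the summed TPM of its related chains, in percent, for the 12 libraries by group (points) with the group mean (line). Kif5b makes up 92.6 to 95.0% of kinesin-1 in rod TRAP and 4.93 to 17.3% in retina, while the Dync1li1 panel is the one in which the fractions overlap.

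Kinesin-2 was mostly higher in rod TRAP. Kif3a and Kif3b are the paired motor subunits of the heterotrimer that drives intraflagellar transport. Kif3a had 942, 965 and 860 scaled counts in control rod TRAP and 280, 331 and 254 in control retina, a log2 fold change of 2.33 ± 0.131 (limma adjusted p = 8.4e-09). Kif3b had 3411, 3557 and 3212 against 1870, 2113 and 1020, a log2 fold change of 1.77 ± 0.205 (adjusted p = 5.1e-06), and the control retina library 3 was the lowest of the 6. Kifap3, the non-motor subunit that links the heterotrimer to cargo, had 2212, 2236 and 1986 against 1157, 1297 and 725 (log2 fold change 1.74 ± 0.175, adjusted p = 1.4e-06). All 3 subunits were thus higher in each rod TRAP library than in any retina library of the controls.

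Kif3c, an alternative partner of Kif3a that is known from neurons, was lower in rod TRAP, with 467, 456 and 474 scaled counts against 1354, 1678 and 1461 (log2 fold change -0.98 ± 0.118, limma adjusted p = 7.5e-06). Kif3c made up 18.2% ± 2.13 (SD, n = 6) of the summed TPM of Kif3b and Kif3c in rod TRAP and 52.7% ± 10.2 (SD, n = 6) in retina. The shares did not overlap between the fractions, and the exact permutation p was 0.00216 (adjusted 0.0026). Kif17, the homodimeric kinesin-2 of cilia and dendrites, was low in both fractions, with 54, 49 and 67 scaled counts against 76, 104 and 113, and did not pass the test (log2 fold change -0.08 ± 0.205, adjusted p = 0.734). Its sign changed with the processing, and it was called lower on the totals of the authors alone (-0.64, adjusted p = 0.0144). It was called higher under quantile normalization (0.85, adjusted p = 0.00568) and after removal of the transcript length and GC trend (1.04, adjusted p = 0.000146). In TPM, the rod TRAP order was Kif3b (61.2 to 71.8), Kifap3 (50.1 to 64.9), Kif3a (29.7 to 41.6), Kif3c (12.4 to 18.5) and Kif17 (1.8 to 2.6). Only Kif3b and Kifap3 were neighbours with overlapping ranges in that order. In retina the order was Kif3c, Kif3b, Kifap3, Kif3a and Kif17, and each range overlapped the next except that of Kif17.

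**Figure D3:**
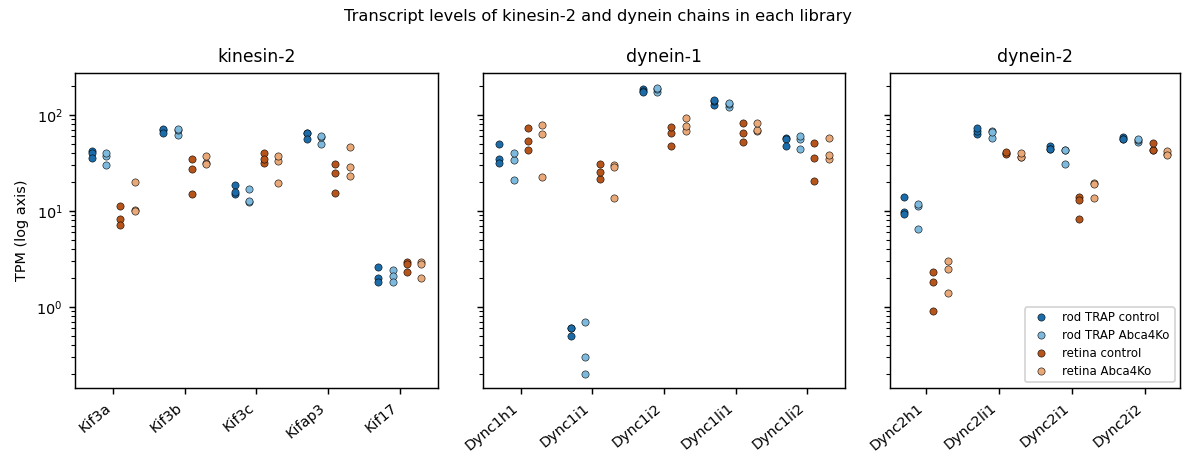
TPM of the kinesin-2, dynein-1 and dynein-2 chains in each of the 12 libraries on a log axis, with 3 points per group and a colour for each group. Dync1i1 lies between 0.2 and 0.7 TPM in rod TRAP and between 13.7 and 30.8 in retina, while Dync1i2 is at 171.4 to 192.6 and at 47.8 to 91.9.

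Cytoplasmic dynein-1, the main minus-end motor, is a complex of heavy, intermediate, light intermediate and light chains. The intermediate chains, which hold the light chains and bind dynactin, showed the sharpest division. Dync1i2, the broadly expressed intermediate chain, had 3564, 3530 and 3482 scaled counts in control rod TRAP and 1746, 1773 and 1295 in control retina, a log2 fold change of 1.83 ± 0.131 (limma adjusted p = 6.3e-08). Dync1i1, the neuronal intermediate chain, had 12, 13 and 16 scaled counts in rod TRAP and 640, 827 and 742 in retina, a log2 fold change of -4.49 ± 0.173 (adjusted p = 5.5e-10). Neither gene had overlapping groups. Dync1i2 made up 99.7% ± 0.116 (SD, n = 6) of the summed intermediate chain TPM in rod TRAP and 73.7% ± 6.07 (SD, n = 6) in retina (exact permutation p = 0.00216, adjusted 0.0026).

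The light intermediate chains, which bind cargo adaptors, were both higher in rod TRAP. Dync1li1 had 2733, 3082 and 3177 scaled counts against 1971, 2194 and 1583 (log2 fold change 1.34 ± 0.131, limma adjusted p = 1.1e-06). Dync1li2 had 1934, 1923 and 1764 against 1579, 1892 and 899, which overlapped before rescaling, and its log2 fold change was 1.11 ± 0.203 (adjusted p = 0.000279). On the totals of the authors alone it did not pass (0.49, adjusted p = 0.067). The share of Dync1li1 in the pair, 71.2% ± 2.53 against 64.6% ± 4.54 (SD, n = 6 each), differed by 6.55 percentage points, with an exact permutation p of 0.013 (adjusted 0.013), and the fractions overlapped. Dync1h1, the heavy chain that carries the motor domain, had 5377, 4382 and 4051 scaled counts in rod TRAP and 9238, 11242 and 7492 in retina. After rescaling, the groups overlapped and it did not pass the test (log2 fold change -0.32 ± 0.148, adjusted p = 0.0668). With the replicate number as a block, which pairs the rod TRAP and retina libraries, it was called lower (adjusted p = 0.0354), and it was also called lower on the totals of the authors alone (-0.95, adjusted p = 0.000236), under quantile normalization (-0.90, adjusted p = 0.000478) and with TPM (-0.54, adjusted p = 0.049). With the length and GC trend removed it was called higher (0.30, adjusted p = 0.0214). Of its 18 alternatives, 16 kept the negative sign. In rod TRAP, the dynein-1 chains ranked Dync1i2, Dync1li1, Dync1li2, Dync1h1 and Dync1i1 by mean TPM, with overlap between Dync1li2 (43.7 to 60.1) and Dync1h1 (20.9 to 49.3).

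Promoter sequences of 4 genes that were far apart between the fractions are given for context, as the 250 bases before the RefSeq start (build GRCm38.p6, read in the direction of each gene). The first pair, Dync1i2 and Dync1i1, are the intermediate chains of opposite direction, Kif5c is a kinesin-1 chain low in rod TRAP, and Kif18a had the largest rise. Capitals mark matches to TAATCC, the core of the sites bound by the photoreceptor factor CRX, or to TGCTGA, an NRL half-site, on either strand, read also as GGATTA and TCAGCA. A match to one cannot overlap a match to the other. Dync1i2 has 2 RefSeq windows, of which the first is shown.
Dync1i2, chr2:71211456-71211705, plus strand: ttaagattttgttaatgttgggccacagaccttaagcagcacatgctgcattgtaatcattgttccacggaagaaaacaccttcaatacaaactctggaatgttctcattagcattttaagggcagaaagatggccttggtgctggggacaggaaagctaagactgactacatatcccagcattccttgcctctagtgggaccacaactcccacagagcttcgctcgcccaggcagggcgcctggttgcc
Dync1i1, chr6:5725389-5725638, plus strand: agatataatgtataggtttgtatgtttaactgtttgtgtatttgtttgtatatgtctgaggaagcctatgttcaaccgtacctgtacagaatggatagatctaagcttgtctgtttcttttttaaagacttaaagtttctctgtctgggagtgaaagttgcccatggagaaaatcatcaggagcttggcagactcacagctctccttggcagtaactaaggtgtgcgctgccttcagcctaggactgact
Kif5c, chr2:49619036-49619285, plus strand: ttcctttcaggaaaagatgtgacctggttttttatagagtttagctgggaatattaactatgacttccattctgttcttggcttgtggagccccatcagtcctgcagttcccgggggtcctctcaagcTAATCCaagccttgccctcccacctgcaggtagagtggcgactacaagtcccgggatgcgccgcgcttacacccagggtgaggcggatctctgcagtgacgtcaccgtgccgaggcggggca
Kif18a, chr2:109280488-109280737, plus strand: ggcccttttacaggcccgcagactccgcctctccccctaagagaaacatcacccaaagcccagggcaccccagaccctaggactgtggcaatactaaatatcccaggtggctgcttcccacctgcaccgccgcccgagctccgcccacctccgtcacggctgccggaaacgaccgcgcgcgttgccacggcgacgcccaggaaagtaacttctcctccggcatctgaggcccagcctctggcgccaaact

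Of these 4 windows, 1 held a match, the TAATCC of Kif5c. RefSeq windows matched 34 of the 42 genes, as 39 windows. TAATCC was in 3 of the 39 windows, which belonged to Kif9 (both of its windows, which overlap) and Kif5c, and in 6.25% of all 32851 windows of this length. TGCTGA was in 5 of the 39, those of Kif1a, Kif17, Kif3c, Kif27 and Dync2h1, and in 16.1% of all windows. Of the 23 windows of genes higher in control rod TRAP, 2 held TAATCC and 2 held TGCTGA, and of the 10 windows of genes lower, 1 and 2 did. A match of letters is not evidence of binding.

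Dynein-2, the motor of retrograde intraflagellar transport, was higher in rod TRAP in all 4 of its chains. Dync2h1, its heavy chain, had 1235, 912 and 981 scaled counts in control rod TRAP and 307, 339 and 176 in control retina, a log2 fold change of 2.61 ± 0.206 (limma adjusted p = 1.6e-07). Dync2i1, an intermediate chain, had 1044, 1057 and 1032 against 450, 441 and 295 (log2 fold change 2.08 ± 0.155, adjusted p = 9.5e-08). Dync2li1, the light intermediate chain, had 668, 716 and 782 against 569, 500 and 582 (1.07 ± 0.137, adjusted p = 1.4e-05). Dync2i2, the other intermediate chain, had 846, 815 and 829 against 841, 765 and 993, so that its groups overlapped on the scaled counts and separated only after rescaling. Its log2 fold change was 0.63 ± 0.139 (adjusted p = 0.00124) and 0.01 on the totals of the authors alone, so on the scaled counts its call rests on the rescaling. With log2(TPM + 1) Dync2i2 was called higher (0.32, adjusted p = 0.0411), and under quantile normalization it did not pass (0.24, adjusted p = 0.16). In TPM, Dync2h1 was the lowest of the 4 chains in both fractions, at 6.4 to 14.1 in rod TRAP and 0.9 to 3.0 in retina. Dync2li1 was the highest in rod TRAP by mean, at 57.5 to 72.8, just above Dync2i2 at 52.0 to 58.2, and their ranges overlapped.

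Kinesin-3 motors, which carry synaptic vesicle precursors, mitochondria and endosomes, held the most abundant motor message in either fraction. Kif1b, which carries mitochondria and synaptic vesicle precursors, had 33936, 36355 and 32050 scaled counts in control rod TRAP and 10570, 13852 and 7206 in control retina, a log2 fold change of 2.43 ± 0.175 (limma adjusted p = 7.0e-08). Kif1a, the synaptic vesicle precursor motor of neurons, had 4267, 5268 and 4551 against 9254, 13122 and 11593 (log2 fold change -0.57 ± 0.135, adjusted p = 0.00194). The call for Kif1a was lost with the length and GC trend removed (0.07, adjusted p = 0.542). Kif1b was 82.7% ± 1.78 (SD, n = 6) of the summed TPM of Kif1a, Kif1b and Kif1c in rod TRAP and 45.0% ± 9.07 (SD, n = 6) in retina (exact permutation p = 0.00216, adjusted 0.0026). Of the other 5 kinesin-3 genes, Kif16b, an endosomal motor, Kif14, a cytokinesis motor, and Kif13a, a recycling endosome motor, were higher, Kif1c was lower and Kif13b did not pass. Kif13a changed sign without the rescaling (0.51 against -0.11). Kif16b overlaps the antisense gene Kif16bos, and whether strand was used in counting is not given in the sources used here.

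By mean TPM over 6 libraries, the 5 highest motor genes in rod TRAP were Kif1b (306.3 to 482.5), Dync1i2 (171.4 to 192.6), Dync1li1 (120.0 to 143.4), Kif1a (57.6 to 97.1) and Kif21a (58.8 to 82.0). The first 4 were separated from each other in range, and Kif1a and Kif21a overlapped. In retina they were Kif1b (67.4 to 200.5), Kif1a (63.7 to 161.6), Dync1i2 (47.8 to 91.9), Dync1li1 (52.7 to 82.2) and Kif21b (33.7 to 88.8), and each overlapped its neighbour. This order pools the genotypes. In control retina alone Kif1a (mean 128.9) was above Kif1b (105.1) in all 3 libraries, followed by Kif21b (71.7), Dync1li1 (66.7) and Dync1i2 (62.5). Kif21a and Kif21b, kinesin-4 motors that restrain microtubule growth in neurons, also differed in proportion. Kif21a was 53.8% ± 3.04 (SD, n = 6) of their summed TPM in rod TRAP and 23.4% ± 9.52 (SD, n = 6) in retina (exact permutation p = 0.00216, adjusted 0.0026). In controls Kif21a had 3139, 3096 and 2823 scaled counts against 951, 1113 and 609 (log2 fold change 2.48 ± 0.174, limma adjusted p = 5.6e-08), while Kif21b, at 0.18 ± 0.119, did not pass (adjusted p = 0.181). Kif21b was called lower on the totals of the authors alone (-0.44, adjusted p = 0.00716) and under quantile normalization (-0.37, adjusted p = 0.0197), and higher with the length and GC trend removed (0.95, adjusted p = 6.9e-07).

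Several kinesins that are named for roles in cell division were among the largest rises, at low levels. Kif18a, a plus-end motor that dampens chromosome movement, had 246, 227 and 218 scaled counts in control rod TRAP and 19, 9 and 12 in control retina. Its log2 fold change of 3.98 ± 0.207 (limma adjusted p = 4.5e-09) was the largest rise of any motor gene. Kif20b, a cytokinesis motor, had 106, 68 and 76 against 7, 6 and 3 (3.13 ± 0.222, adjusted p = 6.0e-08). Kif11, the spindle-separating kinesin-5, had 62, 62 and 54 against 4, 5 and 3 (2.82 ± 0.189, adjusted p = 3.7e-08). The retina values of Kif20b and Kif11 were at the edge of detection, so their fitted sizes are uncertain. Over the alternatives they ran from 1.07 to 3.68 for Kif20b and from 1.12 to 3.42 for Kif11. In scaled counts every control rod TRAP library was above every control retina library for Kif18a, Kif20b and Kif11. Their TPM in rod TRAP reached at most 8.4, 2.9 and 1.5. For Kif20b and Kif11 the minimum of 10 scaled counts in 3 libraries of the fit was met only in rod TRAP. Their direction and lack of overlap therefore followed from that minimum. Of the 9 motor genes with a mitotic role, 8 were tested, of which 5 were higher, 1 was lower (Kif15) and 2 did not pass. The defining markers of dividing cells were at or near 0, with Mki67 listed at 0 TPM in all 12 libraries and Top2a at no more than 0.1. The summed TPM of the 10 proliferation markers was 7.7 to 12.4 in rod TRAP and 4.2 to 8.9 in retina, and Ccna2, at 4.3 to 9.0 and 1.6 to 4.5, made up most of the rod TRAP sum.

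Among the remaining families, Kif2a, a kinesin-13 that takes microtubule ends apart, had 1674, 1598 and 1548 scaled counts in control rod TRAP and 497, 509 and 284 in control retina (2.61 ± 0.184, limma adjusted p = 5.7e-08). Kif26a and Kif26b, kinesin-11 proteins without known motor activity, fell to the edge of detection in rod TRAP. Kif26b had 0, 5 and 6 scaled counts against 155, 196 and 113, a fitted log2 fold change of -3.31 ± 0.271 (adjusted p = 2.2e-07). Kif26a had 1 scaled count in each control rod TRAP library against 42, 69 and 70 in retina, a fitted log2 fold change of -2.47 ± 0.208 (adjusted p = 2.8e-07). At such levels the fitted size depends on the pseudocount, and over the alternatives it ran from -3.69 to -1.97 for Kif26b and from -2.77 to -1.18 for Kif26a. Both genes met the minimum count of the fit only in retina, so their direction and lack of overlap followed from that minimum. Kif9, a kinesin of motile cilia, and Kif27, a kinesin-4 of cilia, were higher (1.26 and 1.44), and Kif7, the kinesin-4 of Hedgehog signalling, was lower (-0.71 ± 0.282, adjusted p = 0.0354) on 5 to 13 scaled counts in rod TRAP. Kif7 passed in 8 of the 16 alternatives. The genes not passing in controls, beside those already named, were Kif4, Kif19a, Kif22 and Kif24, and Kif23 had too few counts to be tested. Kif4 was called lower with the replicate block (adjusted p = 0.0472) and higher under quantile normalization (0.75, adjusted p = 0.0168). Kif22 differed between the authors' tables: in retina its scaled counts were alike in control (157 to 168) and Abca4Ko (140 to 170) libraries, while its TPM was 15.9 to 22.1 and 8.8 to 11.7.

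The fold changes moved with base composition. Over the 41 motor genes, Spearman's rho between the control log2 fold change and the GC content of the longest annotated transcript was -0.72, and over 15624 genes of the same fit with a known transcript it was -0.47. These are descriptions across genes, which share libraries and are not independent. The 23 genes called higher had a median GC content of 47.0%, and the 10 called lower 53.4%. With the smooth trend over length and GC removed from each library, 29 motor genes were higher and 9 lower in controls. Of the 15626 genes in that fit, 6705 were higher and 5858 lower. Kif5b, Kif18a and Dync1i2 kept their call at smaller sizes of 1.98, 2.57 and 0.62. Other called genes that shrank by more than 1.5 times and kept their call were Dync2h1 (1.69), Kif11 (1.72), Kif20b (1.78), Kif2a (1.23), Kifap3 (0.97), Dync2li1 (0.57), Kif14 (0.55), Kif26a (-1.39), Kif1c (-0.47) and Kif3c (-0.64). Dync2i2 (1.56), Kif13a (0.94) and Kif15 (-2.04) grew by more than 1.5 times, Kif1a and Kif7 lost their call and turned in sign (0.07 and 0.30), and Kif5a, Kif5c and Dync1i1 stayed at -4.28, -3.68 and -3.90.

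**Figure D4:**
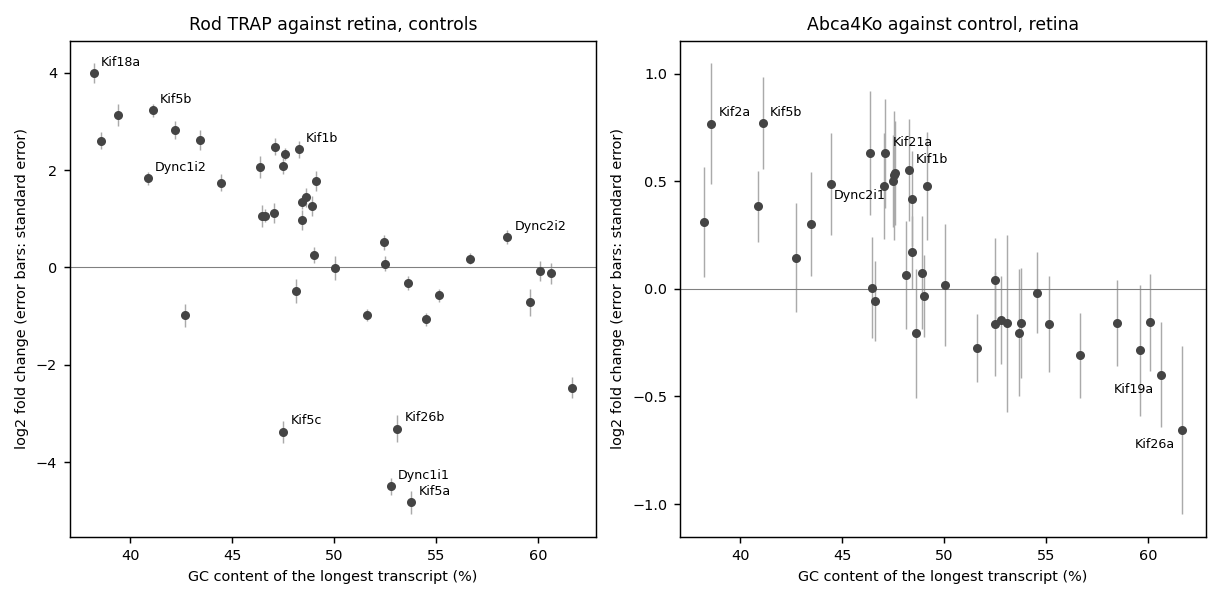
Log2 fold change of the motor genes against the GC content of their longest transcript, with standard errors as bars. The left panel holds rod TRAP over retina in controls (41 genes, rho -0.72) and the right panel Abca4Ko over control in retina (39 genes, rho -0.78). In both, low-GC genes such as Kif5b sit high, and Kif5a, Kif5c, Dync1i1 and Kif26b lie below the other genes of like GC content on the left.

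The partners of these motors were described from 6 lists of 60 genes, of which 58 were tested. In control mice 27 were higher in rod TRAP, 11 were lower and 20 did not pass, with a median log2 fold change of 0.27 beside -0.05 over all genes. The shares over all genes tested, 36.0% higher and 39.3% lower, are the background for these counts, and several of the short lists below lie near them. Dynein regulators and activating adaptors were mostly higher (10 of 15, with 1 lower). Hook1, an adaptor that joins dynein to cargo, had the largest rise of that list (3.73 ± 0.187, limma adjusted p = 3.3e-09), followed by its relative Hook3 (3.26), and the 1 lower gene was Nudcd3 (-0.42). Of 12 kinesin cargo adaptors, 6 were lower and 3 were higher. Fez1, a kinesin-1 adaptor of axons, had the largest fall (-4.93 ± 0.185, adjusted p = 4.9e-10), and Trak2, which joins motors to mitochondria, the largest rise (1.94). Dynactin, the activating complex of dynein, had 5 of 12 subunits higher, from Capza1 (1.54, which shares reads with a near-identical copy) to Dctn1 (0.43), and 0 lower, while Dctn2 had the lowest value (-0.18) and did not pass. Dynein light chains were divided, with 4 of 10 higher, led by Dynlt3 (1.68), and 2 lower, led by Dynll2 (-1.02). Dynlt1a, Dynlt1b, Dynlt1c and Dynlt1f, which did not pass, are near-identical copies whose reads could be split in counting. Kinesin light chains, the cargo-binding partners of kinesin-1, had 2 of 4 higher, with Klc4 at 0.55, and 1 lower, Klc1 at -0.46. Of 5 kinesins named by other rules, 3 were higher, led by Cenpe, a chromosome motor (3.01), and 1 was lower, Kifc2, a neuronal minus-end kinesin (-1.99). Kifc1, called higher, and Kifc5b, which did not pass, are near-identical and their values are uncertain.

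The same comparison was made in Abca4Ko mice, with separate libraries. Of 41 motor genes tested, 20 were higher in rod TRAP and 9 were lower (limma, over 16036 genes), while 29.4% of all genes tested were higher and 34.4% were lower. The 20 genes called higher were all among the 23 of the controls, 87.0% of them, and 8 of the 9 lower genes were among the 10 of the controls. Kif5a (-4.97), Dync1i1 (-4.96), Kif5c (-3.73), Kif26b (-3.09) and Kif26a (-1.89) were again the 5 largest falls. Kif18a (3.27), Kif20b (2.82), Kif5b (2.25), Kif11 (1.96) and Dync2h1 (1.92) were the 5 largest rises. Kif26a and Kif26b again met the minimum count only in retina, and Kif20b only in rod TRAP, so their directions followed from it. Kif5b had 1527, 1906 and 2027 scaled counts in Abca4Ko rod TRAP and 591, 443 and 651 in Abca4Ko retina, and Kif5a had 43, 86 and 67 against 1896, 4203 and 4334. Dync1i1 had 13, 6 and 4 against 439, 830 and 774, and Dync1i2 3689, 3735 and 3783 against 1979, 1986 and 2217. The groups of these 4 genes did not overlap, as was the case for 30 of the 41 motor genes tested.

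The cilium motors followed the same directions in Abca4Ko mice. Kif3a (1.61), Kif3b (1.24) and Kifap3 (1.07) were higher and Kif3c (-0.86) was lower, with limma adjusted p-values of 0.000355 or less for all 4. Kif17 (-0.01 ± 0.230, adjusted p = 0.985) did not pass. It was called higher under quantile normalization (1.16, adjusted p = 0.00162) and with the length and GC trend removed (0.84, adjusted p = 0.00413). The 4 dynein-2 chains were higher (0.65 to 1.92), and so were Dync1i2 (1.43), Dync1li1 (1.02) and Dync1li2 (0.54). Dync1h1 did not pass (-0.39 ± 0.297, adjusted p = 0.276) and was called lower with the replicate block (adjusted p = 0.0246), which also added Kif13a to the higher genes (adjusted p = 0.0202). Kif19a, a kinesin that trims cilia and had 5 to 22 scaled counts in Abca4Ko rod TRAP, was called lower here (-1.09 ± 0.333, adjusted p = 0.0149) and did not pass in controls (-0.12 ± 0.214, adjusted p = 0.616). Its call in Abca4Ko held in 12 of 19 alternatives. It was lost with the length and GC trend removed (-0.21, adjusted p = 0.59) and under quantile normalization, where the sign turned (0.26, adjusted p = 0.508). In controls Kif19a was called lower on the totals of the authors alone (-0.66, adjusted p = 0.0146) and with TPM (-0.56, adjusted p = 0.0253). It was called higher in controls with the length and GC trend removed (1.03, adjusted p = 0.00068) and under quantile normalization (0.95, adjusted p = 0.00181). Without both libraries labelled Abca4Ko replicate 3, 17 motor genes were higher and 6 lower, and Dync1li2 (0.39, adjusted p = 0.151), Dync2i2 (0.34, adjusted p = 0.21) and Kif15 (-0.88, adjusted p = 0.0519) were no longer called. Kif20b, Kif26a and Kif26b had too few counts to be tested in that smaller fit, which accounts for the rest of the change. Of the 13150 genes in that smaller fit, 2667 were higher and 2899 lower. In the fit of all Abca4Ko libraries, 22 of the 58 partner genes were higher and 9 lower, beside 29.4% and 34.4% of all genes.

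The second question was whether the loss of Abca4 changed motor messages in rods. In rod TRAP, 0 of 39 motor genes tested were called between Abca4Ko and control by limma, while 147 of 13104 genes (1.12%) were. The count over all genes rose to 598 without the library labelled Abca4Ko replicate 1 and fell to 36, 28 and 33 without control replicates 1, 2 and 3, so this background itself rests on single libraries. At an unadjusted p under 0.05 there were 4 motor genes, beside 10.4% of all genes, and the groups did not overlap for 5 motor genes, beside 17.5% of all genes. The median log2 fold change was -0.03 over the motor genes. The 5 smallest p-values were those of Kif19a, Kif18a, Kif20a, Kif14 and Kif1a. Kif19a had 5, 12 and 22 scaled counts in Abca4Ko and 52, 34 and 31 in control rod TRAP, without overlap (log2 fold change -1.20 ± 0.295, limma adjusted p = 0.11). It was called without the library labelled Abca4Ko replicate 3 (-1.47, adjusted p = 0.034), without replicate 1 (-0.92, adjusted p = 0.0394), and with no filter on low values (-1.20, adjusted p = 0.0463).

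Kif18a had 149, 201 and 193 scaled counts in Abca4Ko and 246, 227 and 218 in control rod TRAP, also without overlap, with a log2 fold change of -0.33 ± 0.128 (limma adjusted p = 0.374). Kif20a, a cytokinesis motor, had 14, 16 and 18 against 26, 23 and 28 (-0.47 ± 0.198, adjusted p = 0.433), and Kif14 had 17, 8 and 16 against 27, 32 and 18 (-0.62 ± 0.258, adjusted p = 0.433). Kif1a had 4400, 6029 and 6592 against 4267, 5268 and 4551 (0.27 ± 0.121, adjusted p = 0.478). Abca4Ko rod TRAP library 1 was its lowest Abca4Ko value, and without that library Kif1a was called higher (0.40, adjusted p = 0.00539). That library also stood apart in transcript length, with a rho of -0.39 between log length and the deviation of its genes from the rod TRAP mean, against 0.025 to 0.19 in the other 5 rod TRAP libraries. The summed TPM of 8 cone markers was 465.5 to 593.3 in Abca4Ko and 390.5 to 418.9 in control rod TRAP, without overlap, and its part in these results was not tested. The part of library 1 was not tested beyond leaving it out. Kif5b (1527, 1906 and 2027 against 1838, 2016 and 1956) and Dync1i2 (3689, 3735 and 3783 against 3564, 3530 and 3482) had values close to those of the controls.

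Of the 58 partner genes, 1 was called in a genotype comparison, in rod TRAP, where 1.12% of all genes were called, so this count is near the background. It was Capza1, a capping protein subunit of the dynactin filament, with 1037, 895 and 1116 scaled counts in Abca4Ko and 1513, 1543 and 1481 in control rod TRAP (log2 fold change -0.57 ± 0.0999, limma adjusted p = 0.0219). It was called in 12 of 18 alternatives, with adjusted p-values up to 0.17. The value is uncertain, because the copy Capza1-ps1 moved the other way, with 1065, 958 and 924 scaled counts in Abca4Ko and 530, 616 and 548 in control rod TRAP. The sum of Capza1 and Capza1-ps1 was 2102, 1853 and 2040 in Abca4Ko and 2043, 2159 and 2029 in control, and the groups overlapped. How the counting divided reads between the copies was not tested. Capza1 lies on chromosome 3, as does Abca4 (build GRCm38), and the part of that location in this difference was not tested.

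In retina, 0 of 39 motor genes were called between Abca4Ko and control, and 0.112% of the 16964 genes tested were (limma), 19 genes in all and 1 to 16 on leaving out 1 library, the lowest without Abca4Ko replicate 1. At an unadjusted p under 0.05 there were 6 motor genes, beside 11.9% of all genes, and 9 did not overlap between the groups, beside 19.7% of all genes. The 5 smallest p-values were all of genes with higher values in Abca4Ko. Kif5b had 591, 443 and 651 scaled counts against 357, 338 and 282, without overlap (log2 fold change 0.77 ± 0.212, limma adjusted p = 0.406). Kif2a had 797, 513 and 871 against 497, 509 and 284 (0.77 ± 0.28, adjusted p = 0.406), and Kif21a had 1094, 1103 and 1953 against 951, 1113 and 609 (0.63 ± 0.255, adjusted p = 0.406). Dync2i1 (0.50 ± 0.212) and Kif1b (0.55 ± 0.237) had adjusted p-values of 0.408 and 0.411. Without the library labelled Abca4Ko replicate 3 the 5 values were 0.71, 0.67, 0.40, 0.42 and 0.43, and none passed. Control retina library 3 was the lowest of the 6 for all 5 genes.

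These retina differences also moved with base composition. Over the 39 motor genes rho between the log2 fold change and GC content was -0.78, and over 16236 genes it was -0.63. Among the retina libraries, rho between GC content and the deviation of a library's genes from the retina mean was 0.64 for control library 3, and -0.41 and -0.46 for the libraries labelled Abca4Ko replicates 1 and 3. With the trend over length and GC removed, Kif5b was at 0.38, Kif2a at 0.34, Kif21a at 0.48, Dync2i1 at 0.45 and Kif1b at 0.43. The part of base composition in these differences was not tested beyond that. The 6 chain shares also gave no call between genotypes: the smallest exact permutation p was 0.10 in either fraction, the smallest that 3 against 3 allows, and 0.343 after adjustment over the 12 tests. The share of Kif1b in rod TRAP was 81.1% ± 0.231 in Abca4Ko and 84.3% ± 0.404 in control (SD, n = 3 each), and that of Kif21a in retina 30.4% ± 8.89 and 16.4% ± 1.15.

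The last comparison asked whether the genotype difference in rod TRAP differed from that in retina. By the interaction term over all 12 libraries, 0 of 42 motor genes were called, and 1 of 17273 genes (0.00579%) was (limma). At an unadjusted p under 0.05 there were 10 motor genes, beside 11.3% of all genes. The 3 smallest p-values were those of Kif5b (-0.87 ± 0.230), Kif20a (-0.90 ± 0.261) and Kif11 (-0.80 ± 0.281), each with a limma adjusted p of 0.414. For Kif5b the term is the retina difference of 0.77 described above set against -0.09 in rod TRAP. Without both libraries labelled Abca4Ko replicate 3, these 3 terms were -0.90, -0.95 and -0.63, with an adjusted p of 0.714.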

How the data were processed

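Total RNA of retina lysates and RNA of ribosomes immunoprecipitated from rods were made into cDNA with a low-input kit and sequenced. The submitters' processing notes name CASAVA 1.8.2, HISAT2, DESeq2 and edgeR without roles, and the build GRCm39, while the annotation and the counting program are not given in the sources used here. The authors deposited a table of scores, called scaled counts here, which are read counts multiplied by 1 factor per library to a common total and rounded, and a table of TPM to 1 decimal. Since the scaled counts are not raw counts, they were tested on a log scale with limma 3.58.1 (trend, robust, two-sided) in R 4.3.3.

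Genes with at least 10 scaled counts in at least 3 libraries of a fit were normalised with trimmed-mean (TMM) factors and tested as log2(CPM + 0.5), with Benjamini-Hochberg adjustment over all genes tested and a threshold of 0.05. Each fold change is on that scale. The fits were also run on simulated counts with known changes in a small part of the genes and no length or GC trend. In the fraction comparisons most genes were called, so that run does not check them. Shares used TPM and exact permutation tests (scipy). Transcript length and GC came from GENCODE M21, promoters from RefSeq. The labels do not say that the libraries of a group came from separate mice, so p-values measure the spread between these libraries. Same-numbered rod TRAP and retina libraries of a genotype deviated together (r 0.21 to 0.43 in Abca4Ko, 0.16 to 0.27 in control). Abca4Ko rod TRAP library 2 had a higher r with Abca4Ko retina library 3 (0.229). Retina libraries of different genotypes reached 0.361 (Abca4Ko 2 with control 3). The numbers may pair the rod TRAP and retina libraries, but these values do not settle it. Fits with the replicate number as a block were therefore alternatives. The members and lists were chosen with earlier results of these data known. Full values were given for kinesin-1, kinesin-2 and both dyneins, the 5 largest rises and falls, the 5 highest mean TPM in each fraction, and the smallest p-values (5 for genotype, 3 for the interaction).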

Additional observations from a re-analysis of the deposited data

Results flagged for a closer look

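Kif20a, a kinesin of cytokinesis at low counts, had lower values in Abca4Ko than in control in rod TRAP and higher values in retina. In both fractions each library of one group lay beyond each of the other. In rod TRAP it had 14, 16 and 18 scaled counts in Abca4Ko and 26, 23 and 28 in control libraries. In retina it had 22, 23 and 26 in Abca4Ko and 19, 15 and 13 in control libraries. Neither difference passed (limma adjusted p = 0.433 in rod TRAP and 0.443 in retina). Of all genes tested, the groups did not overlap for 17.5% in rod TRAP and 19.7% in retina. The interaction term was -0.90 on the log2 scale and did not pass after adjustment (limma adjusted p = 0.414). Over 24 alternatives, leaving out each library among them, the term ran from -0.998 to -0.475, with adjusted p-values of 0.16 or more.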

How the results depend on the processing

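In the fraction comparisons the count of higher motor genes stayed within 1.5 times of the reported value under every alternative run, 18 to 29 against 23 in controls and 15 to 26 against 20 in Abca4Ko. The count of lower genes moved to 16 in controls on the totals of the authors alone, and to 5 in Abca4Ko with log2(TPM + 1) or with 10 scaled counts required in every library, which leaves fewer genes to test. Leaving out 1 library gave 21 to 22 higher and 8 to 10 lower in controls, and 18 to 20 higher and 6 to 9 lower in Abca4Ko. With the replicate block, 23 were higher and 12 lower in controls and 21 and 10 in Abca4Ko. Over all genes, the block gave 5890 higher and 6456 lower of 16286 in controls, and 5380 and 6021 of 16036 in Abca4Ko. The block changed no motor gene call of the genotype comparisons or the interaction. In the genotype comparisons it joins same-numbered control and Abca4Ko libraries, whose r ran from -0.39 to 0.01. Nothing pairs those libraries, so the block is no check of the genotype results. In rod TRAP the genotype count of 0 became 1 with no filter on low values and 0 to 2 leaving out 1 library, while in retina and for the interaction it was 0 throughout. Kif17 reversed in controls under quantile normalization (0.85), with length and GC removed (1.04) and leaving out 1 library (-0.39 to 0.018, the last without rod TRAP library 2), and in Abca4Ko under quantile normalization (1.16), no filter (0.022), 1 fit of 12 libraries (0.017), with length and GC removed (0.84) and leaving out 1 library (-0.24 to 0.13, the last without rod TRAP library 3). Dync1h1 reversed with length and GC removed, to 0.30 and 0.20. The report gives the sign changes of Kif1a, Kif4, Kif7, Kif13a, Kif19a and Kif21b. Under quantile normalization Kif15 turned to 0.27 in controls and to 0.65 in Abca4Ko, the latter called higher (limma adjusted p = 0.016). In controls Kif13b was called lower on the totals of the authors alone (-0.54) and higher with length and GC removed (0.51). Kif22 was called lower there with log2(TPM + 1) (-1.29). Under quantile normalization in controls, Kif22 (0.79) and Kif24 (1.19) were called higher. The cause was not tested. The added fits with the block and the length and GC trend removed, and those without both Abca4Ko replicate 1 libraries, were chosen after seeing the data, as was the paired test of the shares (exact p = 0.0312 for each of the 6, the smallest that 6 pairs allow). The shares kept direction and side of the threshold under all alternatives run: leaving out 1 library gave differences of 83.7 to 86.2 percentage points for Kif5b, -37.4 to -31.1 for Kif3c, 24.3 to 27.9 for Dync1i2, 5.35 to 8.06 for Dync1li1, 34.9 to 39.9 for Kif1b and 28.8 to 33.2 for Kif21a. Depth is unknown, so no counting interval could be given for low genes.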
